A study of Mus musculus with 39 samples.

Results

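Sox9, Sox8, Wt1, Dmrt1, Gata4, Gata1, Nr0b1, Rhox5, Tcf21 and Nr2f2 encode transcription factors of Sertoli cells and of other somatic cells of the gonad. They were picked by gene symbol, each was listed once in both deposited count tables, and together they are 10 of the 21561 Ensembl genes that both tables list. Bulk mRNA was sequenced from testis and from gubernaculum, the cord that draws the testis towards the scrotum, in 39 libraries that fall into 13 groups of 3 male C57BL/6J mice. INSL3-KI mice are homozygous for a minke whale INSL3 cDNA placed at the mouse Insl3 locus, from which Cre had removed the neomycin cassette, INSL3-KO mice carry an Insl3 knockout, and WT mice have the mouse gene. Testis was taken in all 3 genotypes 8 and 23 days after birth (P8 and P23) and at P40 without INSL3-KO, and gubernaculum in all 3 genotypes at P8 and without INSL3-KO at P23. Total counts were 33000204 to 42629270 in the 24 testis libraries, with a median of 38405047, and 29861447 was the lowest of all 39.

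Sertoli cells nurse the germ cells inside the seminiferous tubules, and SOX9, SOX8, WT1, GATA4 and DMRT1 act in their formation and upkeep. GATA1, NR0B1 (DAX1) and the androgen-responsive homeobox factor RHOX5 belong to the genes of maturing Sertoli cells, and DMRT1 is also made by spermatogonia. TCF21 and NR2F2 (COUP-TFII) are factors of mesenchyme, and in the testis they mark interstitial cells outside the tubules.

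The promoter windows of Gata1, Rhox5, Tcf21 and Nr2f2 are shown because the first pair rose in P8 mutant testis and the second pair in P8 mutant gubernaculum. Each window runs from 250 bases before to 50 bases after a RefSeq start site on GRCm38.p6, 5′ to 3′ and 6 of the 10 genes matched an entry, all but Sox9, Wt1, Gata4 and Dmrt1. Capitals mark matches, on either strand, to 4 GATA words (AGATAA, the same with T as its first letter, with G as its last letter, or with both), to the SOX word ACAAAG and the same with its last A replaced by T, to AGGTCA, which nuclear receptors read as a half-site, or to AGAACA, which the androgen receptor reads as one.
Gata1 (chrX:7967861-7968160, minus strand): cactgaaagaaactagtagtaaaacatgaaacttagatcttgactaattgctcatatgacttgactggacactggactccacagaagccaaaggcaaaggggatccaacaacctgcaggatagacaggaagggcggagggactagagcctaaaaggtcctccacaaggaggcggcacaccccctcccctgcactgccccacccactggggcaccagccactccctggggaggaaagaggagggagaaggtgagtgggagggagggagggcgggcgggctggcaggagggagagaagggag
Rhox5 (chrX:37754358-37754657, plus strand): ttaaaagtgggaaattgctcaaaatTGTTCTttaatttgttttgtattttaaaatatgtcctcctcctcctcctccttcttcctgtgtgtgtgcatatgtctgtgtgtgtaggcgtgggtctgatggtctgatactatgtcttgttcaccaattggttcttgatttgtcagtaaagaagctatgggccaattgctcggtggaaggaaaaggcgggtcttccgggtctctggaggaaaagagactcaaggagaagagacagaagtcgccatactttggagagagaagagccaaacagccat
Tcf21 (chr10:22820094-22820393, minus strand): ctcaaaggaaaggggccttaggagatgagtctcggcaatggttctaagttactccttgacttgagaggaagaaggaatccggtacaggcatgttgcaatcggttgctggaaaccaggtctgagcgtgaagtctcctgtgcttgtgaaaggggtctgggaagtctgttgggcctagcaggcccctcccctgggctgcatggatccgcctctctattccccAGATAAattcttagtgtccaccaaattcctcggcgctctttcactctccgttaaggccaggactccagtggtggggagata
Nr2f2 (chr7:70366697-70366996, minus strand): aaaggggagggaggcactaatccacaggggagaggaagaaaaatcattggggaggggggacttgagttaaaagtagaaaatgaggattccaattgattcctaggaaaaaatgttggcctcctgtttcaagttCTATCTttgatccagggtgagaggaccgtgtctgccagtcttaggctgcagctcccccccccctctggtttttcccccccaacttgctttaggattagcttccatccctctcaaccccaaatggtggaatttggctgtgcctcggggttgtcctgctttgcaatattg

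The Gata1 window held none of these words. Its RefSeq start, at base 7967910, is 1 of 3 GENCODE transcript starts of Gata1 and lies inside the gene (ENSMUSG00000031162, chrX:7959260-7978071, minus strand). Which start is used in testis was not tested, so the window need not be the promoter active there. The Rhox5 window held 1 androgen receptor half-site, read on the opposite strand, a word found in 19% of the 32851 windows, and its RefSeq start lies 50234 bases from the nearest GENCODE start of Rhox5 (ENSMUSG00000095180, chrX:37804842-37808876, plus strand). The windows of Tcf21 (ENSMUSG00000045680, chr10:22817281-22820174, minus strand) and Nr2f2 (ENSMUSG00000030551, chr7:70351944-70366735, minus strand) each held 1 GATA word, found in 29.8% of windows, and their RefSeq starts lie 16 and 11 bases from a GENCODE start. Among the other members, Sox9 (ENSMUSG00000000567) lies at chr11:112782224-112787760, Sox8 (ENSMUSG00000024176) at chr17:25565892-25570686, Wt1 (ENSMUSG00000016458) at chr2:105126529-105173616, Gata4 (ENSMUSG00000021944) at chr14:63198922-63271692, Dmrt1 (ENSMUSG00000024837) at chr19:25505618-25604329 and Nr0b1 (ENSMUSG00000025056) at chrX:86191764-86195947. The motif matches are descriptions of the letters and were not tested against the expression values.

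As a check of the labels, mouse Insl3 had 2722 to 3524 counts per WT testis library at P8, 20844 to 25238 at P23 and 20183 to 29799 at P40. INSL3-KI testis had 15 to 33, 52 to 84 and 443 to 511 at the same ages. In P8 gubernaculum WT had 25 to 87, and INSL3-KI and INSL3-KO had 0. In P23 gubernaculum WT had 9 to 27 and the libraries labelled INSL3-KI had 0 to 28, with overlap, so Insl3 does not tell these groups apart and they are named by their label. INSL3-KO testis had 0 to 5 at P23, but the P8 testis libraries labelled INSL3-KO had 613 to 906, which goes against that label, so their values are given as those of libraries so labelled. The INSL3-KO libraries and WT P23 testis are in the second table and all others in the first, so that in comparisons across the tables a difference of table and one of group cannot be told apart. Levels are given as CPM, a gene's share of the counts of its library, scaled by edgeR's TMM within the groups compared, and edgeR's quasi-likelihood test over all genes made a call where the adjusted p was below 0.01 and levels differed at least 2-fold. In bulk tissue, fewer cells of a type and less of the RNA per cell cannot be told apart.

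In WT testis, 7 of the 10 genes fell and 1 rose between P8 and P23, in a comparison across the tables that called 61.9% of all genes tested. The same 8 genes were called in the same directions between P8 and P40, a comparison within the first table that called 59.7% of genes. Gata4, a zinc-finger factor of Sertoli and Leydig cells, fell most at P23, from 531, 577 and 468 CPM at P8 to 45.2, 45.96 and 40.2. Its log2 fold change was -3.58 (standard error, SE, 0.11, edgeR adjusted p = 6.6e-08), and the groups lay far apart. Rhox5 took the opposite course, with 1.07, 0.5001 and 0.313 CPM at P8 and 9.902, 13.6 and 16.9 at P23 (log2 fold change 4.42, SE 0.46, edgeR adjusted p = 5.7e-05). The mesenchymal pair fell nearly as far as Gata4, with Tcf21 at -3.49 and Nr2f2 at -3.37 on the log2 scale. Dmrt1 fell by 2.78 on the log2 scale, Sox9 by 2.06, Wt1, whose gene model differs between the tables, by 1.95 and Sox8 by 1.63. Nr0b1 and Gata1 were not called (log2 fold changes -0.80 and 0.90, edgeR adjusted p = 9.0e-04 and 0.045). DESeq2 called Gata1 higher at P23 (1.04, DESeq2 adjusted p = 0.0057) and at P40 (1.05, DESeq2 adjusted p = 0.0065), but Nr0b1 at neither age. Without WT P8 replicate 1, whose 14.6 CPM of Gata1 stood above 7.001 and 5.34 in the other two, Gata1 was called higher at P23 (log2 fold change 1.44, edgeR adjusted p = 1.1e-04) and likewise at P40, and Nr0b1 was called lower at P40 without WT P8 replicate 3 (-1.06).

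Germ cell markers took up a growing part of each library over the same interval. The summed CPM of 7 spermatid markers was 1.897 to 2.51 at P8 and 11017 to 13226 at P23, while that of 15 Sertoli markers, none of them among the 10 genes, was 4835 to 6468 and 3282 to 3382. The testis comparisons were therefore repeated with the libraries scaled on the median ratio of the Sertoli markers, which moved the median log2 fold change over all genes from 0.01 to 1.04. Single markers did not all keep their level: of the 15, 4 were still called higher and 7 lower at P23. Over all genes, 10616 of 16908 were called on that scale. On that scale Gata4 (-2.55), Tcf21 (-2.45), Nr2f2 (-2.33), Dmrt1 (-1.76) and Sox9 (-1.03) were still called lower at P23 and Rhox5 (5.45) and Gata1 (1.92) higher, Wt1 (-0.92) and Sox8 (-0.60) were not called, and the sign of Nr0b1 turned from -0.80 to 0.22. Between P8 and P40 the Sertoli scale called 6 of the 10, where 10496 of all 16892 genes tested were called. The 6 were Rhox5 (5.12) and Gata1 (2.28), higher, and Nr2f2 (-2.36), Gata4 (-2.02), Tcf21 (-1.95) and Dmrt1 (-1.52), lower. Of the 15 Sertoli markers, 4 were called higher and 3 lower there. Between P23 and P40 none of the 10 genes was called in WT testis (edgeR), where 4.64% of genes were, and DESeq2 called none of them either. Rhox5 had the largest value, -0.64 (SE 0.19, edgeR adjusted p = 0.021), and it and Gata4 were the members with an unadjusted p under 0.05.

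At P8, when spermatogenesis has only begun, Gata1 and Rhox5 rose and Gata4 fell in INSL3-KI testis, 3 of the 10 genes against 6.29% of all genes tested. Gata1 had 19.7, 9.41 and 7.19 CPM in WT and 61.9, 67.5 and 49.97 in INSL3-KI. Every INSL3-KI library lay above every WT library, and the log2 fold change was 2.31 (SE 0.38, edgeR adjusted p = 0.0077). Rhox5 had 1.44, 0.672 and 0.421 CPM in WT and 8.44, 19.9 and 12.5 in INSL3-KI (log2 fold change 4.01, SE 0.57, edgeR adjusted p = 0.0056). The lowest INSL3-KI library was well above the highest WT library. Gata4 had 715, 776 and 631 CPM in WT and 252, 151 and 222 in INSL3-KI (log2 fold change -1.76, SE 0.20, edgeR adjusted p = 0.0041). Leaving out 1 library gave 0 to 931 calls over all genes in this comparison, against 987 with all libraries. The 3 calls were lost together without WT replicate 2, WT replicate 3, INSL3-KI replicate 1 or INSL3-KI replicate 3, and that of Gata1 also without INSL3-KI replicate 2. The edgeR adjusted p was then at most 0.045 for Gata1, 0.039 for Rhox5 and 0.034 for Gata4, and the direction never turned.

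The other members differed less between INSL3-KI and WT at P8. Nr2f2 had 129, 167 and 219 CPM in WT and 78.1, 52.3 and 80.6 in INSL3-KI, without overlap, and just missed the threshold (log2 fold change -1.29, SE 0.24, edgeR adjusted p = 0.011). Without WT replicate 1 it was called, at -1.50, and with all libraries DESeq2 called it (-1.27, DESeq2 adjusted p = 3.3e-06). Nr0b1, an orphan nuclear receptor that restrains steroidogenic genes, was higher in every INSL3-KI library without being called (0.65, edgeR adjusted p = 0.026). The core Sertoli factors Sox9 (0.43), Sox8 (-0.20), Wt1 (-0.20) and Dmrt1 (-0.32), with Tcf21 (-0.25), had log2 fold changes within the spread of overlapping libraries (edgeR adjusted p from 0.13 to 0.52). Over the 10 genes the median log2 fold change was -0.20, beside 0.00 over all genes.

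The P8 testis libraries labelled INSL3-KO gave the same 3 calls, here across the tables and against the same WT libraries, in a comparison that called 13.8% of genes. Gata1 had 60.6, 58.7 and 62.3 CPM in them (log2 fold change 2.32, SE 0.34, edgeR adjusted p = 0.0011). Rhox5 had 15.1, 14.2 and 12.8 CPM (4.05, SE 0.41, edgeR adjusted p = 2.2e-04). Gata4 had 258, 246 and 244 CPM (-1.51, SE 0.08, edgeR adjusted p = 2.3e-05). The 3 libraries were close together, and each call held with any 1 library left out. Sox9 (0.65, edgeR adjusted p = 0.0061) and Nr2f2 (-0.95, 0.0031) passed the p-value threshold at less than a 2-fold change, and without WT replicate 1 Nr2f2 passed both thresholds (-1.09). Compared directly, INSL3-KI and the libraries labelled INSL3-KO differed in none of the 10 genes by the same thresholds (edgeR and DESeq2; Sox8 had an unadjusted edgeR p under 0.05), where 3.92% of genes were called. The difference was -0.03 for Gata1 (SE 0.12), -0.05 for Rhox5 (SE 0.30) and -0.27 for Gata4 (SE 0.17) on the log2 scale, and Sox8 had the largest (-0.59, edgeR adjusted p = 0.013), the one member besides Dmrt1 and Nr2f2 whose groups did not overlap. With TMM over all testis libraries Sox9 did not overlap either, with INSL3-KI up to 178.03 CPM and those labelled INSL3-KO from 178.81. Overlap was not counted over all genes.

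Ratios of genes within a library do not depend on how libraries are scaled, and they are given here per transcript length, as FPKM. Gata1 over Gata4 was 0.0514, 0.0222 and 0.0214 in the P8 WT libraries, 0.454, 0.823 and 0.412 in INSL3-KI and 0.424, 0.441 and 0.465 in those labelled INSL3-KO. At P23 WT testis it was 0.617, 0.698 and 0.757, so that the P8 mutants lay between P8 WT and P23 WT except for INSL3-KI replicate 2. Rhox5 over Nr0b1 was 0.0446, 0.0232 and 0.0175 in P8 WT, 0.195, 0.402 and 0.335 in P8 INSL3-KI, 0.388, 0.355 and 0.336 in P8 libraries labelled INSL3-KO and 0.855, 1.12 and 1.48 in P23 WT.

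**Figure D1:**
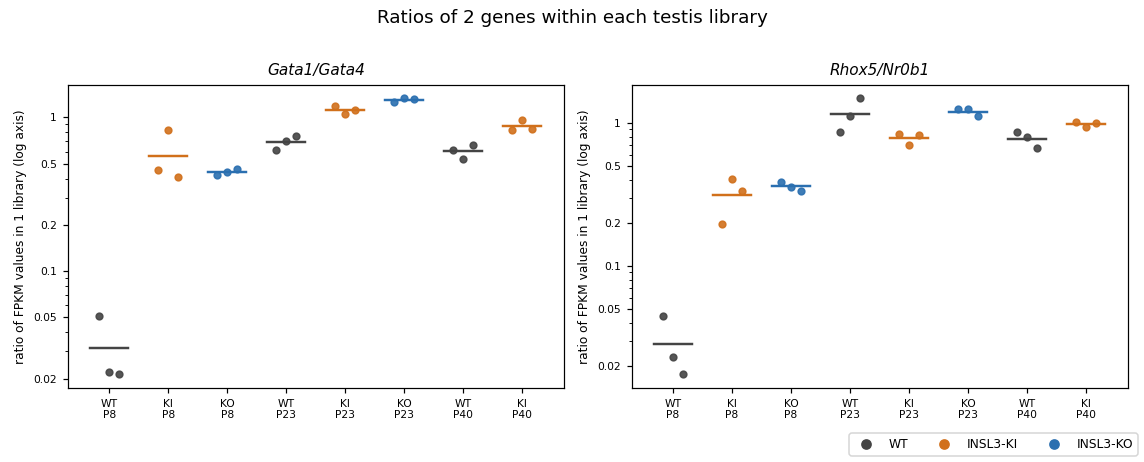
Ratio of the FPKM values of Gata1 to Gata4 (left) and of Rhox5 to Nr0b1 (right) in each of 24 testis libraries, on log axes, by genotype (WT, KI for INSL3-KI, KO for libraries labelled INSL3-KO) and age, with dots for libraries and bars for means of 3. In P8 WT every ratio of Gata1 to Gata4 is at most 0.0514 and every ratio of Rhox5 to Nr0b1 at most 0.0446, below all 21 other libraries.

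Markers of several cell types moved with these P8 results. The summed CPM of 6 spermatocyte markers was 81.7, 46.1 and 38.3 in P8 WT, 422, 1217 and 332 in INSL3-KI and 481, 488 and 484 in the libraries labelled INSL3-KO, and 5 of the 6 were called higher in each mutant. INSL3-KI replicate 2, with the highest spermatocyte sum, also had the highest Gata1 and Rhox5 and the lowest Gata4 of its group. The sum of 5 stromal markers was 4745, 7818 and 15140.0 in WT against 2137 to 3372 in INSL3-KI and 3429.5 to 3518 in those labelled INSL3-KO, and WT replicate 3, the highest, also had the highest Nr2f2 and Tcf21 and the lowest Gata1. The 7 Leydig markers summed to 555 to 676 CPM in WT, 207 to 219 in INSL3-KI and 425 to 439 in those labelled INSL3-KO, of which INSL3-KI had 4 called lower and 1 higher, and the latter 2 lower and 1 higher. Sertoli markers differed less, at 4835 to 6468, 5757 to 6541 and 7494 to 7664 CPM, though not all alike: in the libraries labelled INSL3-KO, Amh, a hormone of immature Sertoli cells, was called lower (-2.07) and Tsx (3.36) and Defb19 (1.90) higher. With the libraries scaled on them, which moved the median log2 fold change over all genes to -0.40 in INSL3-KI and -0.48 in those labelled INSL3-KO, the 3 calls remained in both comparisons and Nr2f2 was called lower as well (-1.75 and -1.44). Over all genes, that scale called 1244 of 15702 in INSL3-KI and 3313 of 15723 in those labelled INSL3-KO. Of the 15 Sertoli markers themselves it called 2 higher and 3 lower in INSL3-KI, and 4 higher and 3 lower in those labelled INSL3-KO. Sox9 was then at 0.06 and 0.22, Sox8 at -0.55 and -0.05, Wt1 at -0.59 and -0.51 and Dmrt1 at -0.68 and -0.49, none of them called. In the libraries labelled INSL3-KO, Wt1 and Dmrt1 passed the p-value threshold at less than a 2-fold change (edgeR adjusted p = 0.0049 and 0.0099). The part of germ cell, Leydig cell or stromal content in the P8 differences was not tested.

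At P23 all 10 genes rose in INSL3-KO testis with TMM scaling, in a comparison within the second table that called 64.4% of genes. With scaling on the Sertoli markers none of the 10 was called, where 13010 of all 16732 genes were. Sox8, Wt1, Gata4, Dmrt1 and Nr0b1 took the opposite sign on that scale. The median log2 fold change of the 10 genes was 2.62 with TMM, beside 0.06 over all genes. Tcf21, a bHLH factor of interstitial cells, had the largest change, from 4.98, 6.83 and 5.85 CPM in WT to 52.2, 57.9 and 51.7 (log2 fold change 3.20, SE 0.11, edgeR adjusted p = 1.1e-09). Sox9, which directs Sertoli cell fate with its relative Sox8, went from 25.2, 22.1 and 25.4 CPM to 191, 192 and 199 (2.998, SE 0.06, edgeR adjusted p = 3.0e-11). Gata1 followed at 2.77, Nr2f2 at 2.72, Rhox5 at 2.65, Nr0b1 at 2.60 and Sox8 at 2.37. Wt1 (2.001), Dmrt1 (1.89) and Gata4 (1.85) had the smallest values. The WT and INSL3-KO libraries overlapped for none of the 10, but how many of all genes lacked overlap was not counted. The Sertoli markers rose in step, with 15 of 15 called higher, a median log2 fold change of 2.60 and a summed CPM of 14609.7 to 14846 against 3282 to 3382 in WT. All 7 spermatid markers were called lower, from 11017 to 13226 CPM to 13.3 to 15.5, as were all 6 spermatocyte markers. Beside Tcf21 and Nr2f2, all 5 stromal markers were called higher (summed CPM 332 to 359 in WT and 2029 to 2088 in INSL3-KO, median log2 fold change 2.40), as were all 5 macrophage markers (101 to 113 and 409.6 to 415) and 4 of 7 Leydig markers (850.4 to 883 and 2112 to 2152). The part of these cell types in the P23 values was not tested.

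Scaled on the Sertoli markers, which put the median log2 fold change over all genes at -2.56, the 10 genes in P23 INSL3-KO ran from -0.77 for Gata4 to 0.58 for Tcf21, and none reached a 2-fold change. Wt1 (-0.62) and Dmrt1 (-0.73) lay with Gata4 below 0, each with an edgeR adjusted p of at most 1.8e-06, and Sox9 was above it (0.38, edgeR adjusted p = 3.2e-04). Gata1 (0.15), Nr0b1 (-0.02), Rhox5 (0.03) and Nr2f2 (0.10) lay nearest to 0.

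With TMM, the mean of INSL3-KI testis at P23 lay between those of WT and INSL3-KO for all 10 genes, with wide spread between its libraries. This did not hold on the Sertoli scale, where the log2 fold changes of INSL3-KI and INSL3-KO against WT were 0.75 and 0.58 for Tcf21, 0.33 and 0.15 for Gata1, and -0.47 and 0.03 for Rhox5. Against WT, across the tables, 4 genes were called higher with TMM, where 20.6% of all genes were called. With scaling on the Sertoli markers none of the 10 was called, where 1118 of all 16603 genes were. The sign turned on that scale for Sox8 (-0.04), Wt1 (-0.23), Gata4 (-0.34), Dmrt1 (-0.06) and Rhox5 (-0.47). Tcf21 had 4.71, 6.47 and 5.51 CPM in WT and 17.7, 15.4 and 29.4 in INSL3-KI (log2 fold change 1.90, SE 0.29, edgeR adjusted p = 0.0035). The others were Gata1 (1.52), Nr2f2 (1.28) and Dmrt1 (1.07), and the lowest of the 10 was Rhox5, with 9.002, 12.3 and 15.3 CPM in WT and 17.8, 11.9 and 32.2 in INSL3-KI (0.76, edgeR adjusted p = 0.14), the one member whose groups overlapped. Overlap was not counted over all genes. INSL3-KI replicate 3 was the highest of its group for every one of the 10 genes, for example 106 CPM of Sox9 against 53.1 and 36.4, and its Sertoli marker sum was 7731 CPM against 3933 and 3056. The 5 stromal markers, 3 of them called higher, summed to 1200.3 to 1689 CPM in INSL3-KI against 332 to 359 in WT, and their part was not tested. The count of 4 fell to 2 without INSL3-KI replicate 3, rose to 7 without INSL3-KI replicate 2, and was 0 without any 1 of the WT libraries or INSL3-KI replicate 1.

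Against INSL3-KO at P23, also across the tables, 6 of the 10 genes were called lower in INSL3-KI where 38.2% of genes were called. With scaling on the Sertoli markers none of the 10 was called, where 9202 of all 16379 genes were, and 8 of the 10 turned sign. Those were Dmrt1 (0.77), Gata4 (0.53), Wt1 (0.48), Sox8 (0.30), Gata1 (0.28), Tcf21 (0.27), Nr0b1 (0.23) and Nr2f2 (0.13). Rhox5 differed most, with 96.5, 96.04 and 89.2 CPM in INSL3-KO and 22.8, 15.3 and 40.004 in INSL3-KI (log2 fold change -1.85, SE 0.34, edgeR adjusted p = 0.0031). Nr2f2 (-1.40), Nr0b1 (-1.25), Tcf21 (-1.25), Gata1 (-1.20) and Sox8 (-1.20) were also called. The groups overlapped for none of the 10, which was not counted over all genes. All 10 were called without INSL3-KI replicate 3, 2 without INSL3-KI replicate 2, 1 without INSL3-KO replicate 1 and 0 without INSL3-KI replicate 1, INSL3-KO replicate 2 or INSL3-KO replicate 3.

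At P40, all 10 genes rose in INSL3-KI testis with TMM scaling, within the first table, where 47.7% of genes were called. With scaling on the Sertoli markers none of the 10 was called, where 11279 of all 16677 genes were. Wt1, Gata4 and Dmrt1 took the opposite sign on that scale. With TMM the median log2 fold change of the 10 genes was 2.26, beside 0.09 over all genes with TMM and -1.97 over all genes on the Sertoli scale. Sox9 had 22.4, 24.2 and 26.9 CPM in WT and 109.9, 211 and 190.2 in INSL3-KI (log2 fold change 2.80, SE 0.27, edgeR adjusted p = 4.0e-04), the largest of the 10. Rhox5 had 9.08, 9.06 and 6.96 CPM in WT and 38.02, 52.5 and 55.4 in INSL3-KI (2.54, SE 0.20, edgeR adjusted p = 2.7e-04). Gata4 had 47.1, 48.4 and 55.4 CPM in WT and 131, 187 and 185 in INSL3-KI (1.73, SE 0.18, edgeR adjusted p = 4.7e-04), the smallest of the 10. INSL3-KI replicate 1 was the lowest of its group for each of the 10 genes, but the groups never overlapped, which was not counted over all genes, and all 10 calls held without it or any other library. It also had the lowest Sertoli marker sum of its group (7735 CPM, against 10822 and 10351 in the others and 2492 to 2754 in WT) and the highest spermatocyte sum (1034, 262 and 187). The 5 stromal markers summed to 236 to 553 CPM in WT and 1123 to 1727 in INSL3-KI with 3 called higher, and the 5 macrophage markers to 90.5 to 111 and 239 to 352 with all called higher. Of 7 Leydig markers 4 were called higher and 1 lower, and the part of these cell types was not tested. On the Sertoli scale Sox9 kept the largest value (0.68, edgeR adjusted p = 0.0066), and the others ran from -0.36 for Gata4 to 0.44 for Rhox5.

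**Figure D2:**
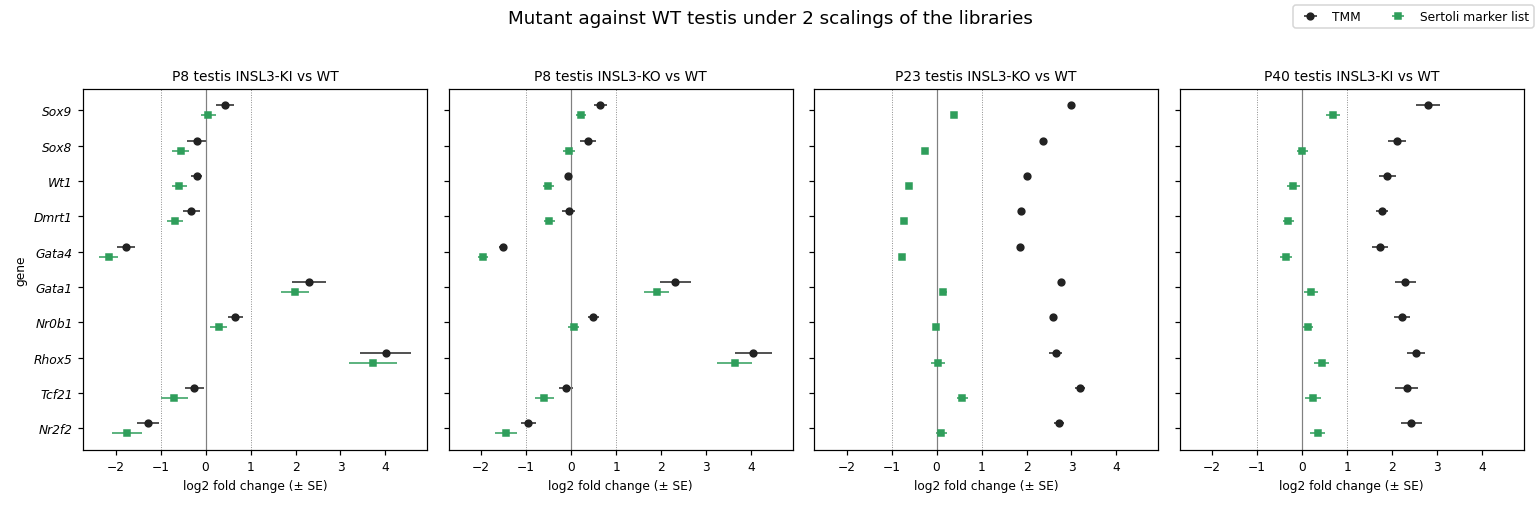
Log2 fold changes against WT with standard errors (bars) for the 10 genes in P8 INSL3-KI, P8 libraries labelled INSL3-KO, P23 INSL3-KO and P40 INSL3-KI testis, with libraries scaled by TMM (black circles) or on 15 Sertoli markers (green squares), with dotted lines at a 2-fold change. At P23 and P40 the TMM values lie between 1.73 and 3.20 and the Sertoli-scaled ones between -0.77 and 0.68, whereas Gata1, Gata4 and Rhox5 at P8 stay beyond 2-fold under both scalings.

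Whether the INSL3-KI effect differed between P8 and P40 was tested as an interaction within the first table, which called 45.6% of genes. For 8 of the 10 genes the effect was higher at P40, the largest differences being those of Nr2f2 (3.64, SE 0.37) and Gata4 (3.42, SE 0.30) on the log2 scale (edgeR adjusted p = 3.6e-05 and 1.7e-05). On the Sertoli scale 2 genes were called higher, Nr2f2 (1.81) and Gata4 (1.53), 2 lower, Rhox5 (-3.55) and Gata1 (-2.04), and Nr0b1 turned sign (-0.46). Over all genes, 9702 of 17354 were called on that scale. With TMM, Gata1 had a difference of -0.08 (SE 0.48, edgeR adjusted p = 0.91) and Rhox5 of -1.54 (SE 0.57, edgeR adjusted p = 0.034), and neither was called. Rhox5 was called without WT P8 replicate 1 (-2.15), and by DESeq2 with all libraries (-1.65, DESeq2 adjusted p = 0.0047).

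Changes with age were tested within the mutants as well. From P8 to P23 in INSL3-KO testis, 3 genes rose and none fell, where 23.7% of genes were called, and this comparison starts from the libraries whose Insl3 counts go against their label. Rhox5 went from 14.4, 13.5 and 12.2 CPM to 114, 113 and 105 (log2 fold change 3.04, SE 0.07, edgeR adjusted p = 1.8e-12), Gata1 changed by 1.37 and Nr0b1 by 1.32. Dmrt1 had the lowest value, -0.81 (edgeR adjusted p = 6.1e-10), short of 2-fold. On the Sertoli scale Rhox5 was still called higher, at 2.19, Gata1 (0.52) and Nr0b1 (0.47) were not called, and Dmrt1 (-1.67), Gata4 (-1.05) and Tcf21 (-1.01) were called lower. Over all genes, that scale called 7166 of 15773. From P8 to P23 in INSL3-KI testis, Dmrt1 was called lower (-1.44, SE 0.25, edgeR adjusted p = 0.0097) where 9.23% of genes were called. This call was lost without P8 replicate 1, P8 replicate 3, P23 replicate 1 or P23 replicate 2. It was also lost on the Sertoli scale, which called 0 of all genes there. Without INSL3-KI P23 replicate 3, 5 genes were called. From P23 to P40 in INSL3-KI none of the 10 was called by edgeR or DESeq2, but edgeR called 0% of all genes there, DESeq2 called 1145 and 7615 had an unadjusted p under 0.05, 7 of the 10 among them. All 10 log2 fold changes were above 0 between those ages with TMM, from 0.57 for Dmrt1 to 1.23 for Sox9, and 5 of 10 were with the Sertoli scale.

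Over the 8 testis groups, with TMM over all 24 libraries, the groups were ordered by level as follows. Sox9 ran from 28.4 ± 2.35 CPM (mean ± SD, n = 3) in P40 WT, which overlapped P23 WT, to 224 ± 6.25 in P23 INSL3-KO, which overlapped P40 INSL3-KI. Sox8 ran from 27.3 ± 2.38 to 139 ± 3.65 and Wt1 from 76.6 ± 8.19 to 296 ± 4.58 in the same groups, and for Wt1 the 5 highest groups, P8 WT among them (289 ± 26.7), overlapped their neighbours. Gata1 ran from 10.1 ± 5.54 in P8 WT to 126 ± 1.24 in P23 INSL3-KO, with both ends apart from their neighbours. Rhox5 had the same ends, 0.704 ± 0.441 and 93.4 ± 3.88, and Nr0b1 ran from 31.7 ± 1.76 in P40 WT to 199 ± 4.11 in P23 INSL3-KO. Gata4 was highest in P8 WT, at 589 ± 63.9, apart from the next group (203 ± 6.47 in P8 libraries labelled INSL3-KO), and lowest in P23 WT, at 50.7 ± 3.41. Nr2f2 was likewise highest in P8 WT (143 ± 37.3, next 90.03 ± 4.02 in P23 INSL3-KO), as were Dmrt1 (276 ± 60.003) and Tcf21 (77.2 ± 17.2), whose P8 WT libraries overlapped those labelled INSL3-KO.

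**Figure D3:**
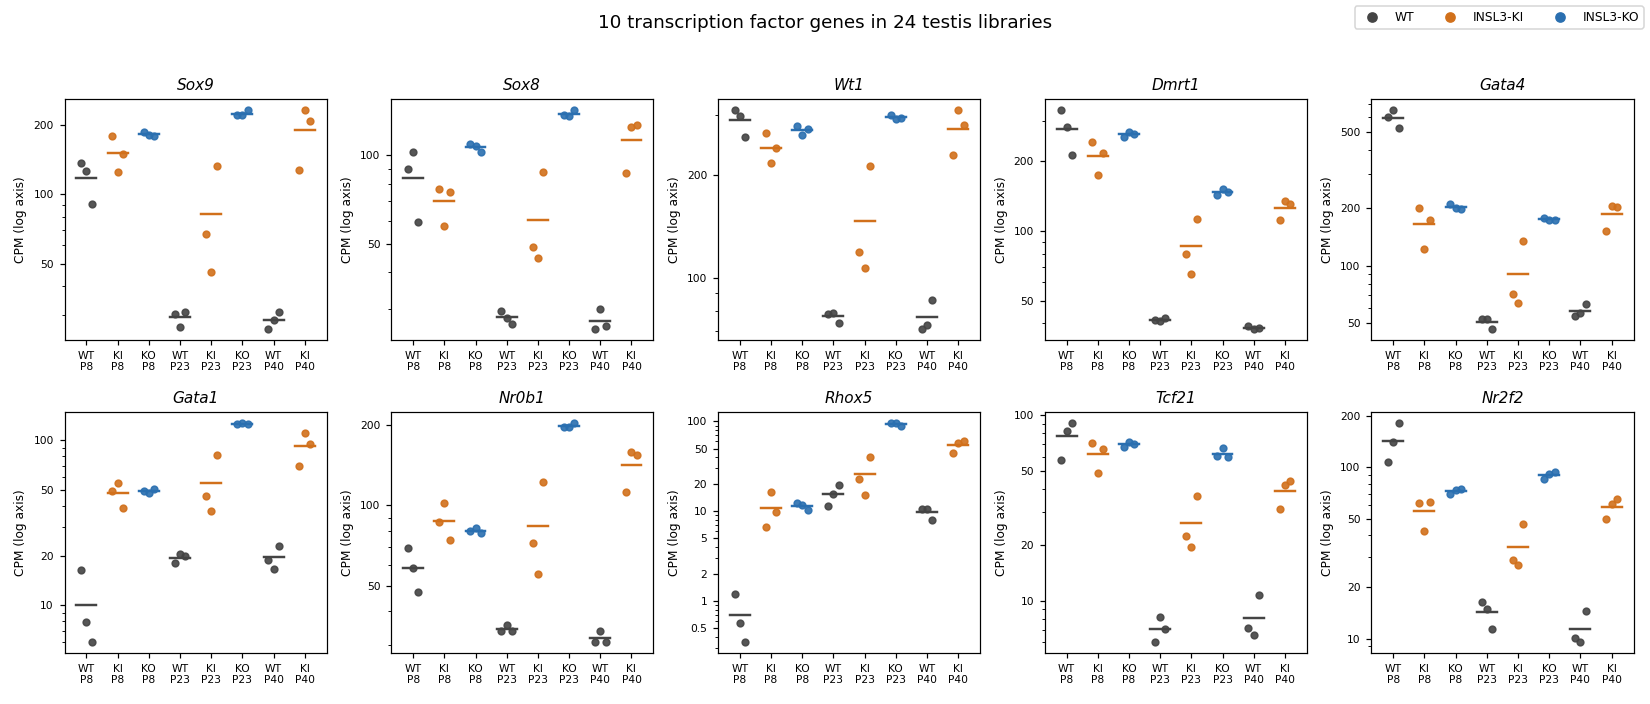
Level of each of the 10 genes in 24 testis libraries (dots, 3 mice a group) as CPM scaled by TMM over these libraries, on log axes, with bars for group means and groups named by genotype (KI for INSL3-KI, KO for libraries labelled INSL3-KO) and age. P8 WT holds the lowest Rhox5 (0.704 ± 0.441 CPM, SD) and the highest Gata4 (589 ± 63.9).

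Per transcript length, Gata4 was the most abundant of the 10 in P8 WT testis at 194 ± 22.2 FPKM (SD, n = 3), followed by Dmrt1 (131 ± 30.7) and Wt1 (128 ± 19.2), and Rhox5 was the least (1.07 ± 0.738). In P23 INSL3-KO Rhox5 was the most abundant (128 ± 6.204 FPKM), followed by Nr0b1 (107 ± 2.17) and Wt1 (101 ± 0.755). The Wt1 value of the second table rests on a longer gene model, 2968 bases implied by counts and FPKM against 2508 in the first.

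Genes whose log2 CPM followed each member most closely over the 24 testis libraries are given as a description, since the libraries of a group share genotype, age and cell make-up. Among 12337 genes searched, the highest Pearson r was that of Rras2 for Sox9 (0.99), followed by Aard, one of the Sertoli markers (0.99). For Sox8 it was Sh2d4a (0.99), for Wt1 Maged1 (0.99), for Dmrt1 Wdr43 (0.99), for Gata4 Gab1 (0.99) and for Gata1 Slc6a14 (0.98). Nr0b1 was followed most closely by Cdk5 (0.99), Rhox5 by Dmrtc1a (0.99), Tcf21 by Rab34 (0.99) and Nr2f2 by Marcks (0.99). Among the members themselves r was highest between Sox9 and Sox8 (0.97) and lowest between Rhox5 and Gata4 (-0.43).

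Of 21 other regulators of the gonad, 20 were tested in P8 testis, where 4 were called lower and none higher in INSL3-KI and 6 lower and none higher in the libraries labelled INSL3-KO, where 6.29% and 13.8% of all genes were called, with medians of -0.80 and -0.52 beside 0.00 and -0.02 over all genes. They included the nuclear receptor gene Nr4a1, at -2.21 and -1.66 on the log2 scale, with Lhx9 at -1.72 in INSL3-KI. At P23 in INSL3-KO 13 of 19 were called higher and 4 lower, where 64.4% of all genes were called, and at P40 in INSL3-KI 13 of 19 higher and 2 lower, where 47.7% were. These counts hold for TMM, with list medians of 1.77 and 1.42, and on the Sertoli scale none was called higher and 9 lower in P23 INSL3-KO and none was called higher and 8 lower in P40 INSL3-KI, with list medians of -0.85 and -0.67 beside -2.56 and -1.97 over all genes. Over all genes, that scale called 13010 of 16732 at P23 and 11279 of 16677 at P40. With TMM, Maf had 2.84 in P23 INSL3-KO and 2.11 in P40 INSL3-KI. Emx2, a homeobox gene of the early gonad, went the other way with TMM, at -2.86 and -3.12. Among 21 paralogs and cofactors, Zfpm2, whose product FOG2 binds GATA4, was lower at P8 in INSL3-KI (-1.95) and in the libraries labelled INSL3-KO (-1.75), as was Gata6 in INSL3-KI (-1.08). Of 19 tested, INSL3-KI had 1 called higher and 2 called lower, and those labelled INSL3-KO had 2 and 5. Dmrtb1, a germ cell gene (-5.53), and Dmrta2 (-4.24) had the largest values at P23 in INSL3-KO, where 8 of 19 were called higher and 5 lower, and at P40 in INSL3-KI 7 of 18 were higher and 3 lower. Together these shares lie near the 64.4% and 47.7% of all genes called, and on the Sertoli scale none was called higher and 13 lower at P23 and none was called higher and 8 lower at P40.

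In the gubernaculum of WT mice at P8 these genes were less expressed than in testis. Of the 10, 9 were called higher in testis, where 28.4% of genes were called in either direction, with log2 differences from 1.07 for Nr2f2 to 8.23 for Dmrt1, and Rhox5 was not called (2.64, edgeR adjusted p = 0.049). The call of Nr2f2 was lost without gubernaculum replicate 2 or 3 or testis replicate 3, and that of Gata1 without gubernaculum replicate 1. Nr2f2 had 72.4, 62.2 and 69.1 CPM in gubernaculum, Wt1 53.2, 88.7 and 57.8 and Sox8 34.5, 31.4 and 27.1. Gata1, Dmrt1, Nr0b1 and Rhox5 had at most 53 counts in any WT or INSL3-KI gubernaculum library and did not pass the filter on low counts between INSL3-KI and WT.

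At P8 Tcf21, Sox9 and Nr2f2 rose and Sox8 fell in INSL3-KI gubernaculum, 4 of the 6 genes tested, in a comparison that called 24.1% of genes. Tcf21 had 0.162, 1.46 and 1.21 CPM in WT, which is 5 to 47 counts a library, and 140.2, 83.2 and 109.98 in INSL3-KI (log2 fold change 6.87, SE 0.50, edgeR adjusted p = 1.5e-05). Sox9 had 5.16, 7.42 and 4.27 CPM in WT and 42.9, 58.7 and 45.96 in INSL3-KI (3.13, SE 0.23, edgeR adjusted p = 1.6e-05). Sox8, which belongs to the same SoxE subfamily, had 33.3, 30.2 and 25.96 CPM in WT and 1.47, 1.78 and 1.94 in INSL3-KI (-4.11, SE 0.18, edgeR adjusted p = 1.3e-06). None of these groups overlapped, which was not counted over all genes. The ratio of Sox9 to Sox8 in FPKM was 0.112, 0.178 and 0.118 in WT against 20.7, 24.2 and 17.2 in INSL3-KI. Nr2f2 went from 69.9, 59.9 and 66.3 CPM to 268, 239 and 285 (2.01, SE 0.11, edgeR adjusted p = 3.3e-06). Wt1 passed the p-value threshold at less than 2-fold (-0.94, edgeR adjusted p = 0.0086), and beyond both thresholds without WT replicate 1 (-1.09). Exons of an antisense gene overlap those of Sox8 and of Nr2f2 in GENCODE (2810468N07Rik and B130024G19Rik), and reads of the partners cannot be told apart if the counting did not use strand.

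In INSL3-KO gubernaculum at P8, across the tables and against the same WT libraries, the same 4 genes were called of 8 tested, where 30.7% of genes were called. Tcf21 had 83.97, 92.7 and 85.6 CPM (6.60, SE 0.48, edgeR adjusted p = 2.5e-05) and Nr2f2 215, 213 and 217 CPM (1.79, edgeR adjusted p = 2.9e-06). Sox9 had 35.1, 29.6 and 30.1 CPM (2.56, edgeR adjusted p = 4.4e-05), and Sox8 9.98, 8.95 and 12.4 CPM (-1.44, edgeR adjusted p = 1.6e-04). The ratio of Sox9 to Sox8 in FPKM was 2.56, 2.41 and 1.76, between those of WT and INSL3-KI. Wt1 had 55.5, 55.2 and 55.6 CPM, within the WT range of 48.6 to 81.4 (-0.14, edgeR adjusted p = 0.54). Without WT replicate 2, Gata4 was also called, at 2.13.

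**Figure D4:**
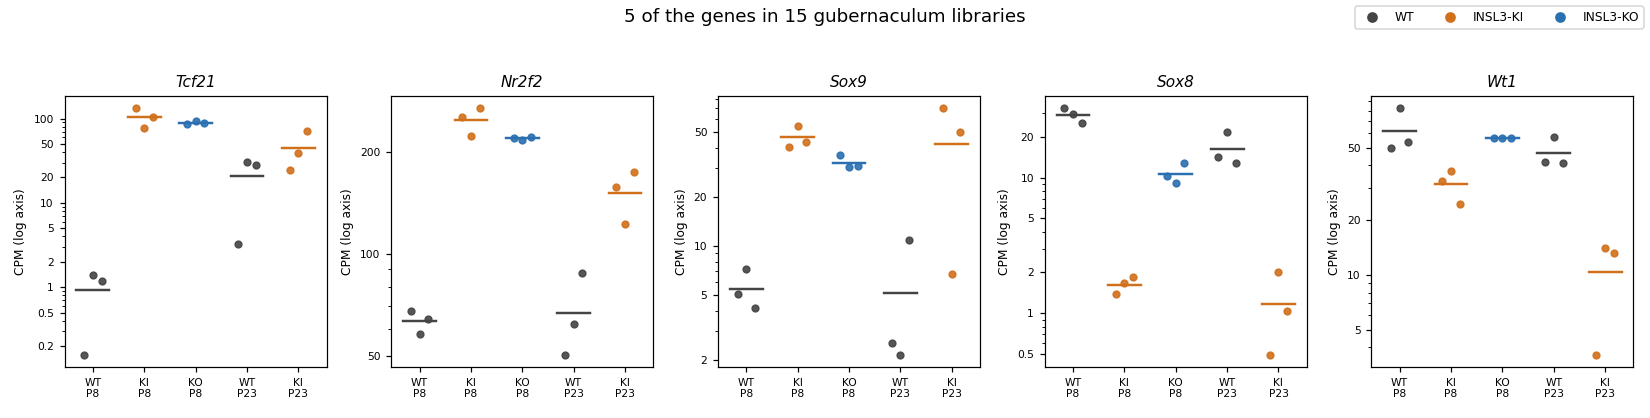
Level of Tcf21, Nr2f2, Sox9, Sox8 and Wt1 in 15 gubernaculum libraries (dots, 3 mice a group) as CPM scaled by TMM over these libraries, on log axes, with bars for group means (KI for INSL3-KI, KO for INSL3-KO). At P8 both mutants lie above WT for Tcf21, Nr2f2 and Sox9 and below it for Sox8, and at P23, where KI stands for libraries labelled INSL3-KI whose Insl3 counts overlap those of WT, the libraries of a group spread widely.

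The gubernaculum libraries also differed in cell type markers. Markers of epididymis and Wolffian duct, 5 genes of which 3 had at most 3 counts in every P8 WT library, summed to 0.0949 to 0.537 CPM in P8 WT, 733 to 1744 in INSL3-KI and 1022 to 1136 in INSL3-KO. The 4 adipocyte markers summed to 89.2 to 99.4, 637 to 899 and 1772 to 1982 CPM, the 5 smooth muscle markers to 3173 to 3609, 13761 to 17407 and 6427 to 6835, and the 6 skeletal muscle markers to 23010.4 to 24223, 708 to 1266 and 6137 to 6632. The 15 Sertoli markers summed to 483 to 519, 1266 to 3029.6 and 1591 to 3544 CPM, but Cst12, Defb19 and Fshr had at most 3 counts in every P8 INSL3-KI library. The 5 stromal markers summed to 32988 to 35156, 13002 to 19014 and 20180.3 to 21363 CPM, with 1 called lower in INSL3-KI, and 1 higher and 1 lower in INSL3-KO. The part of these cell types in the changes of Tcf21, Nr2f2, Sox9 and Sox8 was not tested.

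At P23 none of the 6 genes tested was called by edgeR between WT gubernaculum and the libraries labelled INSL3-KI, where 2.57% of genes were called, 4 of them had an unadjusted p under 0.05 and DESeq2 called 4. Sox8 had 13.4, 20.3 and 11.8 CPM in WT and 0.4801, 1.84 and 0.974 in those labelled INSL3-KI, without overlap (-3.78, SE 0.58, edgeR adjusted p = 0.015), and it was called without the library labelled INSL3-KI replicate 2. Wt1 had 39.6, 53.9 and 38.5 CPM in WT and 3.52, 13.01 and 12.4 in those labelled INSL3-KI (-2.19, SE 0.51, edgeR adjusted p = 0.044). Nr2f2 had 47.5, 58.3 and 81.4 CPM in WT and 153, 113 and 164 in those labelled INSL3-KI (1.20, edgeR adjusted p = 0.036). Sox9 was 2.39, 2.02 and 10.01 CPM in WT and 67.8, 6.18 and 47.1 in those labelled INSL3-KI. WT replicate 3 and labelled INSL3-KI replicates 1 and 3, the libraries with most Sox9, were those with epididymis and Wolffian duct markers, at 1086, 2457 and 7558 CPM against at most 1.02 in the other 3. The 3 libraries labelled INSL3-KI also differed in adipocyte markers, at 4866, 12119.5 and 413 CPM. In WT gubernaculum none of the 6 genes was called between P8 and P23 (edgeR), where 10.5% of genes were called, 2 of the 6 had an unadjusted p under 0.05 and DESeq2 called 1. Tcf21 went from 0.1403, 1.25 and 1.04 CPM to 2.81, 27.3 and 25.01 (4.50, SE 0.97, edgeR adjusted p = 0.012) and was called without WT P23 replicate 1, as was Sox8 without WT P23 replicate 2 (-1.12). The effect of INSL3-KI, taken at P23 from the libraries so labelled, differed between P8 and P23 for none of 8 genes tested as an interaction (edgeR), where 0.281% of genes were called and 3 of the 8 had an unadjusted p under 0.05 and DESeq2 called 1, and the lowest p was that of Tcf21, whose effect was 5.77 lower at P23 on the log2 scale (SE 1.18, edgeR adjusted p = 0.022).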

How the data were processed

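RNA was extracted with TRIzol, and mRNA libraries were read as 150 bp pairs by Illumina NovaSeq and aligned by the authors with HISAT2 to GRCm38, per the labels; the program that counted reads and its use of strand are not given in the sources used here. The authors deposited raw counts and FPKM of each gene in 2 tables, of 27 and 12 libraries, here joined on the Ensembl identifier. Shared genes held 94.2% to 97.9% of a library's counts. Counts of the compared groups were tested with edgeR 4.0.16 (R 4.3.3; filterByExpr with min.count 10 and min.total.count 15, TMM, quasi-likelihood F test, Benjamini-Hochberg adjustment over all genes). Alternatives used DESeq2 1.42.0, limma 3.58.1 on log2(FPKM + 1) and log2(FPKM + 0.1) for genes with FPKM of at least 1 in 3 libraries, no filter, library size alone, 1 fit over all groups of the tissue, a replicate block, each replicate left out, and size factors from the median ratio of 15 Sertoli markers. The fits were run on simulated counts with 1 dispersion for all genes and few changed genes. That setting differs from these data, so it does not give the error rate of the calls. Python 3.11.15 was used for summaries. In every comparison all 10 genes were named, with at most the 3 called genes of largest change from each further list. Overlap of groups was looked at for the 10 genes and not for all genes. Genes of like pattern had a mean of at least 5 CPM. The 10 genes and the lists were chosen with earlier results of these data known. The labels call the 3 samples of a group biological replicates. The edgeR p-values set a difference of groups against the spread between these samples, estimated with information shared over genes. Promoter windows come from RefSeq and gene coordinates from GENCODE M21 on GRCm38.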

Additional observations from a re-analysis of the deposited data

Results flagged for a closer look

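The INSL3-KI effect in testis differed between P40 and P8 in the interaction test for 8 genes, by 3.64 for Nr2f2, 3.42 for Gata4, 2.50 for Tcf21, 2.30 for Sox9, 2.23 for Sox8, 2.02 for Dmrt1, 2.01 for Wt1 and 1.49 for Nr0b1 on the log2 scale with TMM. On the Sertoli scale only Nr2f2 (1.81) and Gata4 (1.53) of these 8 were still called, and Nr0b1 turned sign (-0.46).

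In the following pairs of comparisons every mutant library lay on one side of WT in the first and on the other side in the second, and the difference between the effects was not tested in these pairs. How many of all genes did so was not counted. Nr2f2 had -1.29 in P8 testis and 2.01 in P8 gubernaculum of INSL3-KI mice, and -0.95 in P8 testis and 1.79 in P8 gubernaculum labelled INSL3-KO. Sox8 had 0.37 in P8 testis, -0.05 on the Sertoli scale, and -1.44 in P8 gubernaculum labelled INSL3-KO. In testis it was not called (edgeR adjusted p = 0.12). With TMM over all testis libraries its highest P8 WT library had 102.7 CPM and the lowest labelled INSL3-KO 102.8. In testis labelled INSL3-KO, Gata4 had -1.51 at P8 and 1.85 at P23, and Nr2f2 -0.95 and 2.72. In INSL3-KI testis, Gata4 had -1.76 at P8 and 0.85 at P23, and Nr2f2 -1.29 and 1.28. Nr2f2 in P8 testis of either mutant and Gata4 in P23 INSL3-KI testis were not called by edgeR with TMM. On the Sertoli scale the P23 values were -0.77 and 0.10 in INSL3-KO and -0.34 and 0.15 in INSL3-KI, so that Gata4 no longer had opposite signs. The P8 testis libraries labelled INSL3-KO hold Insl3 counts that go against that label.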

How the results depend on the processing

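Of 2592 recomputed values of single genes, 2278 kept their direction and their side of the thresholds, 104 lost a call, 91 gained one and 104 uncalled ones changed sign, and 15 called ones changed sign, all on the Sertoli scale. Those were Dmrt1 (-0.057) in P23 INSL3-KI against WT, Sox8 (-0.25), Wt1 (-0.62), Gata4 (-0.77), Dmrt1 (-0.73) and Nr0b1 (-0.024) in P23 INSL3-KO, Sox8 (0.30), Gata1 (0.28), Nr0b1 (0.23), Tcf21 (0.27) and Nr2f2 (0.13) in P23 INSL3-KI against INSL3-KO, Wt1 (-0.19), Gata4 (-0.36) and Dmrt1 (-0.31) at P40, and Nr0b1 (-0.46) in the interaction. That scale also took the calls among the 10 genes to 4 in the interaction and to 0 in the other comparisons just named. It took them to 0 in INSL3-KI P23 against P8 as well, where it called 0 of all genes. With all groups in 1 fit, 7 were called in P23 INSL3-KI against WT, 3 in INSL3-KI P23 against P8, 2 in INSL3-KI P40 against P23, 4 in P23 gubernaculum and 1 between ages in WT gubernaculum. DESeq2 called 7, 2, 0, 4 and 1 there, and 1 in the gubernaculum interaction. Scaling by library size gave 8 in P23 INSL3-KI against WT, and limma gave 8 at both pseudocounts, 2 in INSL3-KI P23 against P8 and 1 in P23 gubernaculum. Leaving out 1 library gave 0 to 4 in P8 INSL3-KI against WT, 0 to 7 in P23 INSL3-KI against WT, 0 to 10 in P23 INSL3-KI against INSL3-KO, 0 to 5 in INSL3-KI P23 against P8, and 0 to 1 in P23 gubernaculum and between ages in WT gubernaculum. Over all genes, the count with its range over the alternatives was 987 (0 to 2161) in P8 INSL3-KI against WT, 2171 (1517 to 3313) for those labelled INSL3-KO and 617 (296 to 906) between both mutants, 3428 (372 to 5134) in P23 INSL3-KI against WT, 6262 (3658 to 9202) between the P23 mutants, 763 (485 to 950) in WT P40 against P23, 1515 (0 to 5300) and 0 (0 to 3334) between successive ages of INSL3-KI, 3731 (2299 to 7166) between ages of INSL3-KO, 387 (0 to 2480) in P23 gubernaculum, 1571 (289 to 2575) between ages of WT gubernaculum and 45 (0 to 1119) in its interaction, and it stayed within 1.5 times elsewhere. Gata1, Dmrt1, Nr0b1 and Rhox5 did not pass the filter on low counts between INSL3-KI and WT gubernaculum. The cause was not tested.

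With the replicate number as a replicate block, 0 genes were called in P8 INSL3-KI against WT, 1 in P23 INSL3-KI against WT, 2 in INSL3-KI P23 against P8 and 1 between ages in WT gubernaculum. The labels do not say whether same-numbered samples were paired. In no comparison did all same-numbered pairs correlate above 0.1, though single pairs reached 0.56 and -0.50 in INSL3-KI testis P40 against P23. So few pairs cannot settle whether samples were paired.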

Other observations

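Relatives of the 10 genes also differed in P8 gubernaculum. Gata3, a GATA factor expressed in the Wolffian duct, was higher in INSL3-KI (7.004) and INSL3-KO (5.25), as was Gata2 (3.66 and 2.29). Msc, a bHLH gene of muscle precursors related to Tcf21, was lower (-5.24 and -2.55). In P8 testis the ratio of Nr2f2 to Tcf21 in FPKM was 0.614, 0.5501 and 0.656 in WT, 0.319, 0.325 and 0.338 in INSL3-KI and 0.326, 0.326 and 0.334 in the libraries labelled INSL3-KO, and neither mutant overlapped WT.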
